A study of Mus musculus with 54 samples.

Results

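Among 23 clones of the mouse mammary carcinoma line 4T1, 10 of the 23481 genes of the expression table were followed because each was at or near the floor of the measurement, or was high, in 1 or a few clones only. The genes are Fam111a, Arhgef3, Fermt1, Lrrk2, Parvb, Hexa, Tbcel, 5730409E04Rik, Armcx3 and Unc5d, and all 10 were found in the table. They were picked on their levels in the clones, so those levels are given as a description with no test. The levels in tumors and lung metastases were not part of the choice.

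RNA-seq was measured in 54 libraries from 4 groups: 2 lung metastases (Lung_1 and Lung_2), 2 orthotopic tumors (Tumor_1 and Tumor_2), 2 intravasating clones (E and T) and 21 non-intravasating clones. 4T1 is a line from a mammary carcinoma of a BALB/c mouse that spreads to the lung. Every clone was grown from a single FACS-sorted 4T1 cell, was cultured without treatment, and had been scored in a pool with the others for entry into the blood, so each is 1 line and 1 founder cell. There were 2 libraries, A and B, per clone and per specimen. Whether these came from separate cultures or tissue pieces is not stated, and p-values then measure only the spread between these samples. Whether tumor cells were sorted out of the tissue of the mouse is likewise not stated for the specimens.

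The 10 genes belong to different machineries. Integrins hold a cell to its matrix, and kindlins such as Fermt1 and parvins such as Parvb act at the inner face of these adhesions, where the RhoA GTPase that Arhgef3 activates also controls contractile actin fibres. Hexa supplies an enzyme subunit of the lysosome, Lrrk2 is a kinase of Rab GTPases on membranes, Tbcel acts on tubulin, and Fam111a is a protease at sites of DNA replication. Because a clone descends from a single cell, its RNA reports on 1 lineage, where a bulk culture averages many.

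Reads in genes ran from 16327693 to 20368740 per library in lung metastases, from 12183058 to 17369960 in tumors, from 15581390 to 31609870 in the intravasating clones and from 8849257 to 27304778 in the other clones. The A libraries of Lung_1 and Lung_2 stood apart, with 20278 and 19868 genes that had a read, against 16604 and 16972 in their B libraries and 16175 to 17300 in the tumors. Levels are normalized counts, that is, reads scaled for library depth and not for gene length, so genes are not ranked against each other. A count of 0 allows up to 3 reads, which is 1.53 to 5.85 normalized counts depending on the library, for counting error only. A clone was called at the floor when the mean of its libraries was under 10 normalized counts, and on when it was at least 50.

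**Figure D1:**
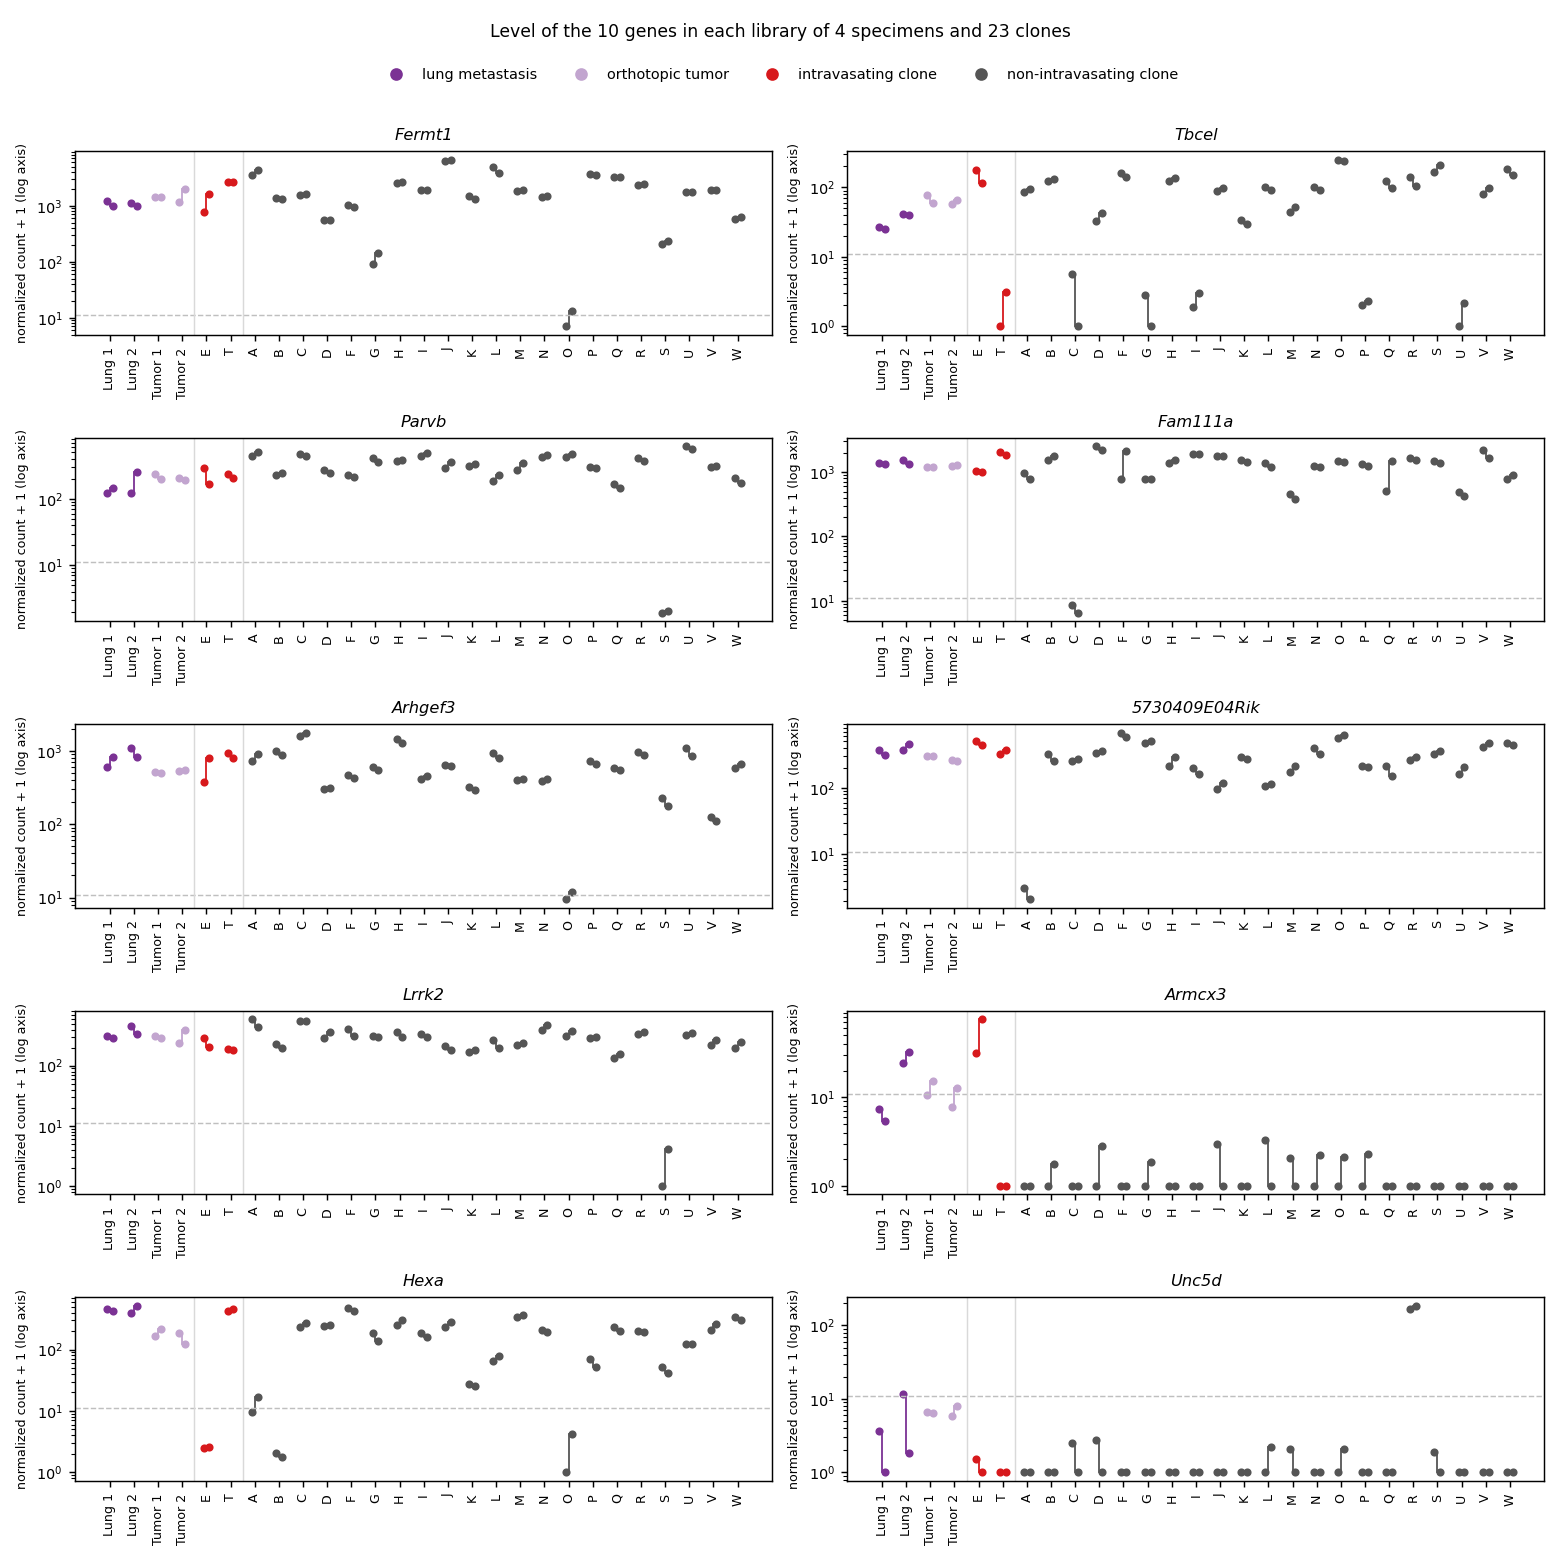
Normalized count + 1 (log axis) of the 10 genes in each of the 54 libraries; the points of a clone or specimen are its libraries A and B, and the dashed line marks 10 normalized counts. Parvb and Lrrk2 sit at the floor in clone S, Arhgef3 and Fermt1 in clone O, Fam111a in clone C and 5730409E04Rik in clone A, while Armcx3 is high in clone E and Unc5d in clone R.

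Of the 23 clones, 12 carried at least 1 of the 10 genes in its rare state and 11 carried none. Clone O had 3 of them at the floor, namely Arhgef3, Fermt1 and Hexa. Clone C had Fam111a and Tbcel at the floor, clone S had Lrrk2 and Parvb, and clone E had Hexa at the floor and Armcx3 on. The intravasating clones did not share a state. E had Hexa at the floor and Armcx3 on, T had Tbcel at the floor, and each of these 3 genes was in the opposite state in the other of the 2 clones. Both libraries of a clone were on the same side of 10 normalized counts for all 10 genes, with the exception of Arhgef3 and Fermt1 in clone O and Hexa in clone A.

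Such patterns were rare in the table. A level under 10 in 1 clone beside at least 50 in the 22 others occurred in 15 of 13614 genes (0.11%), and 6 of the 10 genes were among them. The reverse, at least 50 in 1 clone beside under 10 in the 22 others, occurred in 34 genes (0.25%), and Armcx3 and Unc5d were among them. A gap of at least 2 on the deposited log2 scale between adjacent clones occurred in 97 genes (0.713%), and 5 of the 10 had one. The genes were chosen for these patterns, so the counts describe the choice. The clones nearest to the floor of 10 were clone O for Arhgef3 at 9.71 and for Fermt1 at 9.05, just inside, and clone A for Hexa at 12.1, just outside.

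An adhesion gene was at the floor in clone O and another in clone S. Fermt1 encodes kindlin-1, which binds integrin tails in epithelial cells and activates them (chr2:132904177-132946036, mm10, RefSeq positions, minus strand). In clone O it had 6.04 and 12.1 normalized counts in libraries A and B, from 10 and 11 reads. Over the 23 clones its mean ran from 9.05 in O through a median of 1799.5 to 6461 in J. Clone O stood alone at the bottom, and clones G at 117.7 and S at 220.8 were next. The libraries of adjacent clones did not overlap in 13 of the 22 steps of this order, the most among the 10 genes, so Fermt1 was graded among the clones as well as at the floor in O.

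Parvb encodes beta-parvin, which joins integrin-linked kinase to actin. In clone S it had 0.914 and 1.05 normalized counts in libraries A and B, 1 read each. Its mean over the clones ran from 0.983 in S through a median of 311.3 to 591.3 in U, and the lowest clone after S was Q with 156.3. The gap between S and Q was 2.48 on the log2 scale, and 6 of the 22 steps in the order were free of overlap between libraries.

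The paralogs of both genes were near their medians in the clone where the gene was at the floor. In clone O the kindlin-2 gene Fermt2 stood at 1710 normalized counts, against a median of 1731 over the clones. In clone S the alpha-parvin gene Parva stood at 1937, against a median of 2060. Integrin-linked kinase (Ilk) was at 1690 in O and 1278 in S, against a median of 1384. Of the 12 other genes tested from a list of integrin activators and parvin partners, 1 was at its lowest of the 23 clones in O (Lims1, an adaptor bound to integrin-linked kinase) and 1 at its highest (talin, Tln1), with a median difference from the median clone of 0 on the log2 scale. In S, 3 of the 12 were at their lowest, namely Fermt2 at 1038, Tln1 at 1989 and vinculin (Vcl) at 1218, and the median difference was -0.04. Over all 13614 genes tested, 4.69% were lowest and 7.77% highest in O, and 9.62% were lowest and 8.24% highest in S.

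Arhgef3 encodes an exchange factor that loads RhoA and RhoB with GTP (chr14:27114461-27403916, plus strand). In clone O it had 8.46 and 11.0 normalized counts in libraries A and B, from 14 and 10 reads. Over the clones it ran from 9.71 in O through a median of 582.5 to 1676 in C, and the next lowest clone, V, had 116.8. Clone O was apart from V by 1.65 on the log2 scale and its libraries did not overlap with those of V. Of 12 other genes tested from a list of RhoA exchange factors and related GTPases, 1 was lowest of the 23 clones in O, the RhoA exchange factor Net1 with 845, against a median of 1317. Arhgef11 and Arhgef17, which also act on RhoA, were second highest in O, with 528.3 and 1402, against medians of 339.9 and 848.6.

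Lrrk2 encodes a large kinase that phosphorylates Rab GTPases, and its human counterpart is known from inherited Parkinson disease. Clone S had 0 and 3.16 normalized counts in libraries A and B, from 0 and 3 reads. The clones ran from 1.58 in S through a median of 294.8 to 551.4 in C, with Q next to S at 145.9. The 22 other clones formed a continuous series, with 3 of the 22 adjacent steps free of overlap. The related kinase gene Lrrk1 was at 1292 in S, against a median of 1562. Of 9 other genes of a list of LRRK kinases, Rab substrates and regulators, Rab8b was the lowest of the 23 in S with 873.5 and Vps35, a retromer subunit, the highest with 4205. Rab43, a substrate of the kinase, had 1436 in S, against a median of 614.1.

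Lrrk2 and Parvb lie on chromosome 15, 7.36 Mb apart, and both were at the floor in S. Parvb is at chr15:84232043-84315689 and Lrrk2 at chr15:91672791-91816124 (plus strand). Of the 3 nearest tested genes on each side, 5 of 6 around Lrrk2 were at their lowest of the 23 clones in S, and 3 of 6 around Parvb. They were lower without being at the floor. Kif21a, a kinesin gene on one side of Lrrk2, had 284.5 normalized counts in S, against a median of 644.3. Cpne8 had 449.9 against 1221, and Gxylt1 on the other side 828.7 against 1417. Samm50, next to Parvb, had 870.4 in S, against a median of 1327.

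The 49 tested genes between Parvb and Lrrk2 showed the same. In S, 41 of them were below the median clone and 15 were at their lowest, while 0 were under 10 in S beside at least 50 in every other clone. Their median difference was -0.39 on the log2 scale. The whole of chromosome 15 had a median of -0.26 in S over 550 genes, the lowest of the 23 clones for this chromosome, and 26.0% of its genes were at their lowest in S. Chromosome 4 in the same clone went lower, at -0.45, with 44.21% of its 837 genes at their lowest. A further gene with the pattern of Lrrk2 and Parvb in S, Rims2, is on chromosome 15 as well (chr15:39198286-39684372). Rims2 was noticed by its levels and is not one of the 10.

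**Figure D2:**
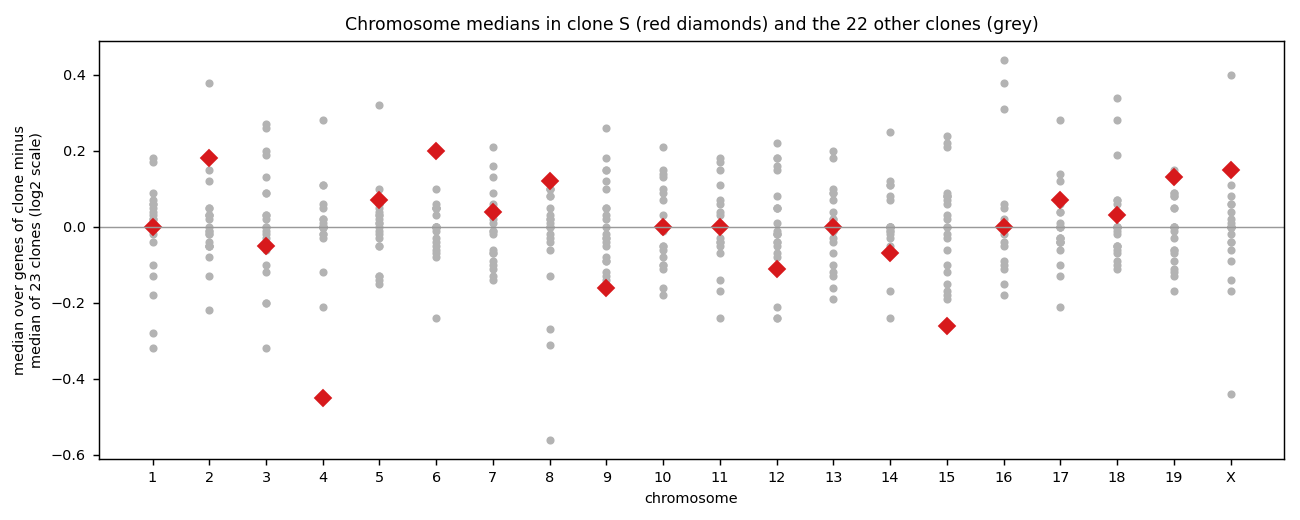
Median, over the tested genes of a chromosome, of the log2 difference between a clone and the median of the 23 clones, for clone S (red diamonds) and the 22 other clones (grey points). Clone S is at -0.45 on chromosome 4 and at -0.26 on chromosome 15, where it is the lowest clone.

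Around the other genes the neighbours differed by amounts that varied from gene to gene. The 6 neighbours of Fam111a in C were all below the median clone, by -0.53 to -0.03 on the log2 scale. Of these, 2 were at their lowest of the 23 clones, and chromosome 19 as a whole was at -0.13 in C. Those of Fermt1 in O differed by 0 to 0.40, on a chromosome 2 that as a whole was 0.38 higher in O. Those of Hexa differed by -0.30 to 0.27 in clone B, by -0.34 to 0.14 in E and by -0.54 to -0.01 in O. Those of Unc5d differed by -0.30 to 0.28 in R and those of Armcx3 by -0.10 to 0.45 in E. The spread was wider around Arhgef3 in O, from -0.86 to 0.87, and around Tbcel, from -1.81 to 1.26 over its 6 floor clones. In clone C all 6 neighbours of Tbcel were above the median clone, by 0.11 to 1.13, on a chromosome 9 that as a whole was 0.26 higher in C.

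In clone A, 3 of the 6 neighbours of 5730409E04Rik were at their highest of the 23 clones, as were 5.41% of all genes tested. Ago4, an Argonaute gene, had 139.2 normalized counts in A, against a median of 18.5. Ago1 had 1294 against 846.9, and AU040320 had 553.1 against 395. Clspn and Psmb2, the nearest genes on either side, were close to their medians with 1548 and 2591 in A, against 1557 and 2507. Ncdn was below, with 782.8 against 913.9.

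**Figure D3:**
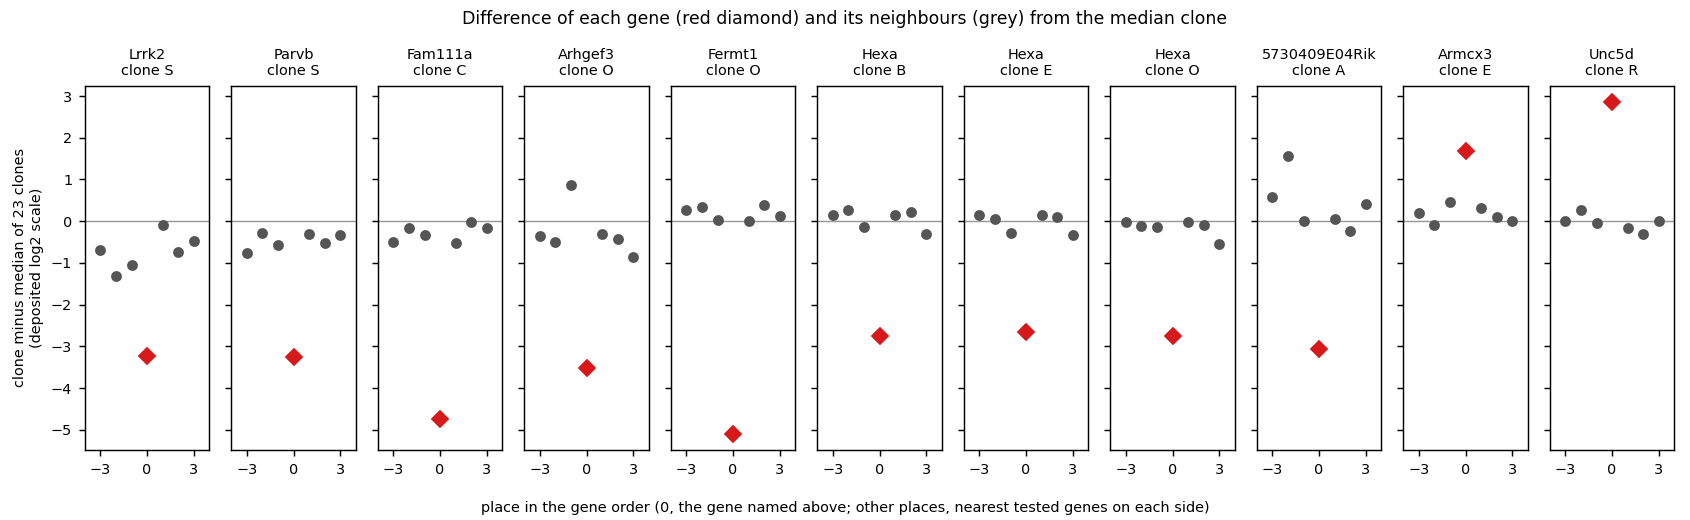
Log2 difference from the median of 23 clones for each gene in the clone named (red diamond, place 0) and for its 3 nearest tested genes on each side (grey). The neighbours of Lrrk2 in clone S all lie below 0, while those of Fermt1 in clone O lie between 0 and 0.40.

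Fam111a encodes a protease that binds PCNA, the sliding clamp of replication. In clone C it had 7.65 and 5.50 normalized counts in libraries A and B, from 5 and 7 reads. The clones ran from 6.58 in C through a median of 1434.5 to 2385 in D, with M next to C at 423.1. The step between C and M was 3.25 on the deposited log2 scale. In clones F and Q the 2 libraries of a clone differed by more than the spacing of most clones, with 778.7 and 2138 in F and 514.7 and 1468 in Q. Of 11 replication fork genes tested, Fen1, a flap nuclease, and Rfc5, a clamp loader subunit, were at their lowest in C with 950.3 and 626.8, against medians of 1256 and 880.2. Chaf1a, a histone chaperone subunit, was at its highest with 3166, against 2566, and Pcna was at 5720, against a median of 4448. Over all genes tested, 4.49% were lowest and 4.89% highest in C.

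Fam111a is at chr19:12573510-12589769 (plus strand), and A330040F15Rik overlaps its end by 3.9 kb. That gene was also at its lowest in C, with 1.16 normalized counts against a median of 10.4. Reads from the shared stretch cannot be told apart, because the strand setting of the counting is not given in the sources used here.

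5730409E04Rik (chr4:126609854-126614371, plus strand) had 2.15 and 1.11 normalized counts in libraries A and B of clone A, from 2 and 1 reads. Its clone means ran from 1.63 in A through a median of 278.9 to 633.1 in F. Clones J at 105.9 and L at 110.8 came next after A, and their libraries overlapped. Clone A was 2.01 below J on the log2 scale.

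Hexa and Tbcel were at the floor in several clones. Hexa encodes the alpha subunit of beta-hexosaminidase A, the lysosomal enzyme that trims GM2 ganglioside (chr9:59539540-59565109, plus strand). It had 1.06 and 0.759 normalized counts in libraries A and B of clone B, 1.53 and 1.60 in clone E, and 0 and 3.29 in clone O. Clone A followed with 8.58 and 15.6 and clone K with 26.8 and 24.0. The other clones ran on up to 448.5 in F, with a median of 196.4 over all 23. The largest step in the order lay at the edge of the floor, from E at 1.565 to A at 12.09. It was 0.54 on the deposited log2 scale, on which low genes show smaller differences. Hexa thus had 3 clones at the floor and a graded series above it.

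Other genes of the same lysosomal pathway were present in the clones with Hexa at the floor. Gm2a, the activator protein that presents the ganglioside, had 714 normalized counts in B, 787.1 in E and 765.1 in O, against a median of 660.2. None of the 13 other genes of lysosomal glycosphingolipid breakdown was at its lowest of 23 clones in B, E or O, while over all genes 1.26% were lowest in B and 0.375% in E. In clone O, the protective protein gene Ctsa was at its highest, with 2444, against a median of 957.9.

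Likeness to other clones did not follow Hexa alone. Over the 13604 tested genes that are not among the 10, the clone nearest to B was E and the clone nearest to E was B (r = 0.72, of differences from the median clone), and the clone nearest to O was E (r = 0.62). The correlations are across genes, which are not independent replicates, and the clone values share one normalization. The second nearest clone was W for B (0.57) and for E (0.68), and F for O (0.50), and Hexa was above the floor in both W and F. E was also the nearest clone of F, N, S and W, in which Hexa was above the floor.

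Tbcel encodes a relative of tubulin folding cofactor E that acts on tubulin stability (chr9:42412316-42472238, minus strand). It was at the floor in clones C, G, I, P, T and U, with means between 0.575 and 2.30 normalized counts, from 1 to 3 reads in both libraries together. Clones K at 30.7, D at 36.8 and M at 47.0 formed a low group, and the other 14 clones ran from 88.2 to 245 in O. The step above the 6 floor clones, to K, was 1.05 on the log2 scale. The low group did not overlap with the clones above it, and clone O, with Hexa at the floor, had the highest Tbcel. Of the 6 clones at the floor, 2 had a nearest clone that was at the floor too, C and U (r = 0.48). Of 6 tubulin cofactor genes tested, Tbcb and Tbcd were at their lowest in C with 200 and 205.2, against medians of 330.3 and 335.3, and Tbce was at its lowest in I with 244.5, against 362.4. In I, 1.71% of all genes were at their lowest.

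**Figure D4:**
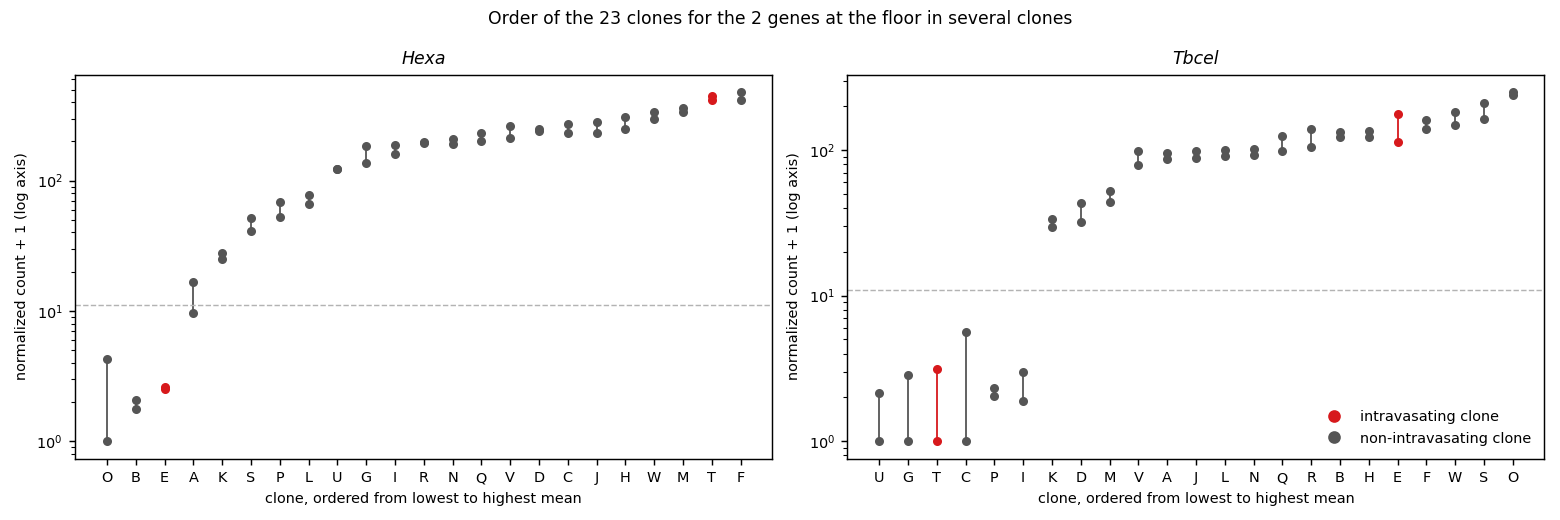
Normalized count + 1 (log axis) of Hexa and Tbcel in libraries A and B of each clone, with clones ordered from lowest to highest mean; intravasating clones are red and the dashed line marks 10 normalized counts. The largest step of Hexa lies just above its 3 floor clones, from E at 1.565 to A at 12.09, and it climbs in smaller steps from there. Tbcel has 6 floor clones, a low group of K, D and M, and 14 clones above 88.

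Armcx3 and Unc5d were on in 1 clone each. Armcx3 (chrX:134756552-134761457, plus strand) encodes a protein of the mitochondrial outer membrane, known in neurons for a part in moving mitochondria. In clone E it had 30.6 and 75.3 normalized counts in libraries A and B, from 60 and 94 reads. In 13 clones it had 0 reads in both libraries, and the highest of the 22 other clones was L with 1.13. Its relatives in the same X-linked cluster were not raised alike in E. Armcx4 had 816.1 there against a median of 575.4, rank 17 of 23, and Armcx5 was at its median of 143.9.

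Unc5d (chr8:28646717-29219671, minus strand) encodes a receptor of the netrin receptor family that also binds FLRT proteins. Clone R had 164.3 and 184.7 normalized counts in libraries A and B, from 187 and 154 reads. In 15 clones both libraries had 0 reads, and the highest of the 22 other clones was D with 0.895. None of 7 related receptors and ligands tested was alone at the top or bottom of the 23 clones in R (Flrt2 had 0 there, tied with other clones), where over all genes 1.27% were highest and 1.2% lowest. Unc5b, the other UNC5 receptor gene among them, had 3712 in R against a median of 3803, and Ntn1, which encodes netrin-1, had 512.4 against 521.9.

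The genes whose clone pattern came closest to each of the 10 were found by Pearson correlation of log2 means over 23 clones, as a description. For Lrrk2 the nearest of the 13614 genes tested over the clones was Parvb (r = 0.92, Spearman's coefficient = 0.70), followed by Rims2 (0.87). Lrrk2 and Parvb were both picked on levels that include the floor in clone S, so a high r over all clones follows in part from the choice. Without clones Q and S, the farthest from the median of Lrrk2, r with Parvb was 0.63 over 21 clones. Fermt1 was closest to St14, which encodes the epithelial protease matriptase (r = 0.92, Spearman's coefficient = 0.88), to 1810019J16Rik (0.91) and to the flippase gene Atp8a1 (0.90). It ran opposite to Prkch, a protein kinase C gene (r = -0.90). These held without clones G and O, at 0.87 for St14 and -0.83 for Prkch, so the likeness did not rest on clone O.

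Hexa was closest to Lcp1, which encodes the actin-bundling protein L-plastin (r = 0.80, and 0.77 without clones B and O). Arhgef3 was closest to Slain1 (0.82, and 0.74 without O and V), Tbcel to Zmynd11 (0.75, and 0.74 without G and U), and 5730409E04Rik to the vimentin gene Vim (0.84, and 0.67 without A and J). The last ran opposite to Dok2 (r = -0.90). For Hexa the floor clone E stayed in, and for Tbcel the floor clones C, I, P and T. The values with clones left out therefore do not show whether these likenesses rested on clones at the floor. For the genes on in 1 clone the likeness rested on that clone. Armcx3 was closest to Ptpru (0.56, and 0.25 without E and L) and Unc5d to 9230104L09Rik (0.73, and 0.09 without D and R). Fam111a was closest to the overlapping A330040F15Rik (0.79, and 0.58 without C and M).

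The sequence before the start was compared for the 8 genes that had an entry in the RefSeq promoter table (GRCm38.p6), over the 250 bases upstream of 14 annotated starts. Armcx3 and Unc5d had no entry. Windows are shown for 4 genes that were at the floor in clone S (Parvb), in O (Fermt1), in B, E and O (Hexa) and in A (5730409E04Rik), and whose window ends at the first base of the gene. Capitals mark CG dinucleotides, the sites that DNA methylation acts on, and each is given 5′ to 3′ on the strand of the gene.
Parvb, chr15:84231793-84232042, plus strand: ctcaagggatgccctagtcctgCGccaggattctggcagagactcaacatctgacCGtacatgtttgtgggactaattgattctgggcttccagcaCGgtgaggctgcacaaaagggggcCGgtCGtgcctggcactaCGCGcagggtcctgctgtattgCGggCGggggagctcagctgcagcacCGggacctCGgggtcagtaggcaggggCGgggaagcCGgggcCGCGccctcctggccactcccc
Fermt1, chr2:132946037-132946286, minus strand: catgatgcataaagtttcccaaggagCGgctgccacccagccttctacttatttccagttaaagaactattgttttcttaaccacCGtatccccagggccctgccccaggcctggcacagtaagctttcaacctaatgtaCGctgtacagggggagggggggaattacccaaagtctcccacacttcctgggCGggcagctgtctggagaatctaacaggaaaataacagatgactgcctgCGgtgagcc
Hexa, chr9:59539290-59539539, plus strand: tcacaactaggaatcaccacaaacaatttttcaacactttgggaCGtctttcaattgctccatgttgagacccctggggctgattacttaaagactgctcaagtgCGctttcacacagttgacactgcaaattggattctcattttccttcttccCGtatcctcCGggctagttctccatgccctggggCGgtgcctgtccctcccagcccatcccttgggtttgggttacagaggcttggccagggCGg
5730409E04Rik, chr4:126609604-126609853, plus strand: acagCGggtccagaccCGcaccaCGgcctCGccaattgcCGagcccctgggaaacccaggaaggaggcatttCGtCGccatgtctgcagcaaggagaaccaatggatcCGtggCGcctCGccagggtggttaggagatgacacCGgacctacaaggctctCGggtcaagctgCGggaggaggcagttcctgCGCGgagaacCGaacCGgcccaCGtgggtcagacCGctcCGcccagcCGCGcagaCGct

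The windows had 15 CG in Parvb, 5 in Fermt1, 6 in Hexa and 23 in 5730409E04Rik. The median over all 32851 windows in the table was 6, and 27.3%, 55.6%, 50.4% and 13.3% of all windows had at least as many as these 4 genes in that order. Lrrk2 had 22 and Fam111a 9, and the first windows of Tbcel and Arhgef3 had 13 and 4. Their other windows had 2 and 3 in Tbcel and 4, 15 and 0 in Arhgef3. The windows of Lrrk2 and Arhgef3 lay inside the annotated span of the gene. The 8 genes did not share a CG-rich or a CG-poor start. The motif TATAAA, read on both strands, was in 0 of the 14 windows, against 12.4% of all windows. These windows come from 8 genes and those of Fam111a overlap, so they are few, not separate, and show no contrast by themselves.

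The second comparison asked how the 10 genes differed between lung metastases and the orthotopic tumors. Hexa was 2.61 times as high in lung metastases. It had 451.8 and 427.1 normalized counts in libraries A and B of Lung_1 and 392.4 and 516.2 in Lung_2, against 165.1 and 212.8 in Tumor_1 and 186.4 and 120.4 in Tumor_2. All 4 lung libraries were above all 4 tumor libraries. The difference was 1.15 ± 0.13 on the log2 scale (SE, 2 specimens each) with an adjusted p of 0.000486 (limma, two-sided, Benjamini-Hochberg over 13679 genes). Lung_1 was above 22 and Lung_2 above all 23 clones.

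Arhgef3 was also higher in lung metastases. It had 608.1 and 818.6 normalized counts in Lung_1 and 1089 and 823.7 in Lung_2, against 517.2 and 496 in Tumor_1 and 531 and 550.4 in Tumor_2. The groups did not overlap, and the difference was 0.59 ± 0.14 (SE, limma adjusted p = 0.0152). Fermt1 and Tbcel were lower. Fermt1 had 1214 and 989.4 in Lung_1 and 1118 and 982 in Lung_2, against 1417 and 1430 in Tumor_1 and 1190 and 2012 in Tumor_2. Its specimen means did not overlap while library A of Tumor_2 lay within the lung range, and the difference was -0.45 ± 0.11 (limma adjusted p = 0.0146). Tbcel had 26.1 and 23.8 in Lung_1 and 39.7 and 38.8 in Lung_2, against 77.8 and 57.7 in Tumor_1 and 57.3 and 65.4 in Tumor_2. No library overlapped between the groups, and the difference was -0.52 ± 0.14 (limma adjusted p = 0.0233).

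Of the 9 genes tested, 2 were higher and 2 lower in lung metastases, while over all 13679 genes 16.7% were higher and 14.8% lower, 31.5% in either direction. The calls of Arhgef3, Fermt1 and Tbcel were lost without either tumor (limma adjusted p from 0.0654 to 0.144), and with either library letter alone. Over these settings Arhgef3 stayed between 0.55 and 0.63 and Tbcel between -0.48 and -0.56, whereas Fermt1 was -0.15 with the A libraries alone and -0.75 with the B libraries alone. That of Hexa was lost with the B libraries alone, where the difference was 1.26 (adjusted p = 0.0572).

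The other tested genes did not pass. Parvb averaged 160.7 ± 37.8 normalized counts in lung metastases and 205.5 ± 14.0 in tumors (SD, n = 2 specimens each), a difference of -0.31 (limma adjusted p = 0.125). Both groups were near the bottom of the clones, with 1 to 4 of the 23 clones below each specimen. 5730409E04Rik differed by 0.35 (adjusted p = 0.0703), Fam111a by 0.19 (0.203) and Lrrk2 by 0.15 (0.432). Their specimens lay inside the clone range, with 8 to 20 clones below. Without Lung_2 the difference of Parvb passed at -0.46 (adjusted p = 0.0254) and without Lung_1 that of 5730409E04Rik passed at 0.47 (adjusted p = 0.0158), both with limma. Parvb also passed with the A libraries alone, at -0.61 (limma adjusted p = 0.0292), and differed by -0.01 with the B libraries alone (limma adjusted p = 0.994). None of the 8 genes that were at the floor in some clones was under 10 normalized counts in any specimen.

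Armcx3 and Unc5d were at low levels in every specimen. Armcx3 had 6.29 and 4.46 normalized counts in Lung_1 and 23.2 and 31.3 in Lung_2, against 9.49 and 14.4 in Tumor_1 and 6.80 and 11.7 in Tumor_2. Lung_2 was the highest and Lung_1 the lowest, and the difference of 0.12 did not pass (limma adjusted p = 0.684). It was 0.47 without Lung_1 (adjusted p = 0.0144) and -0.22 without Lung_2 (adjusted p = 0.292). All 4 specimens lay above 22 clones and below clone E, with means under 10 in Lung_1 (5.37) and Tumor_2 (9.24). Unc5d had 2.70 and 0 in Lung_1 and 10.8 and 0.825 in Lung_2, against 5.69 and 5.41 in Tumor_1 and 4.85 and 7.01 in Tumor_2. It was under the filter on low counts and was not tested. Its means were above 22 clones and below clone R in all 4 specimens, and in the lung metastases they rested mostly on the A libraries. All 4 means were under 10, so at the floor by the rule for clones. That of Lung_1 came from 3 and 0 reads, which counting error around 0 allows.

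**Figure D5:**
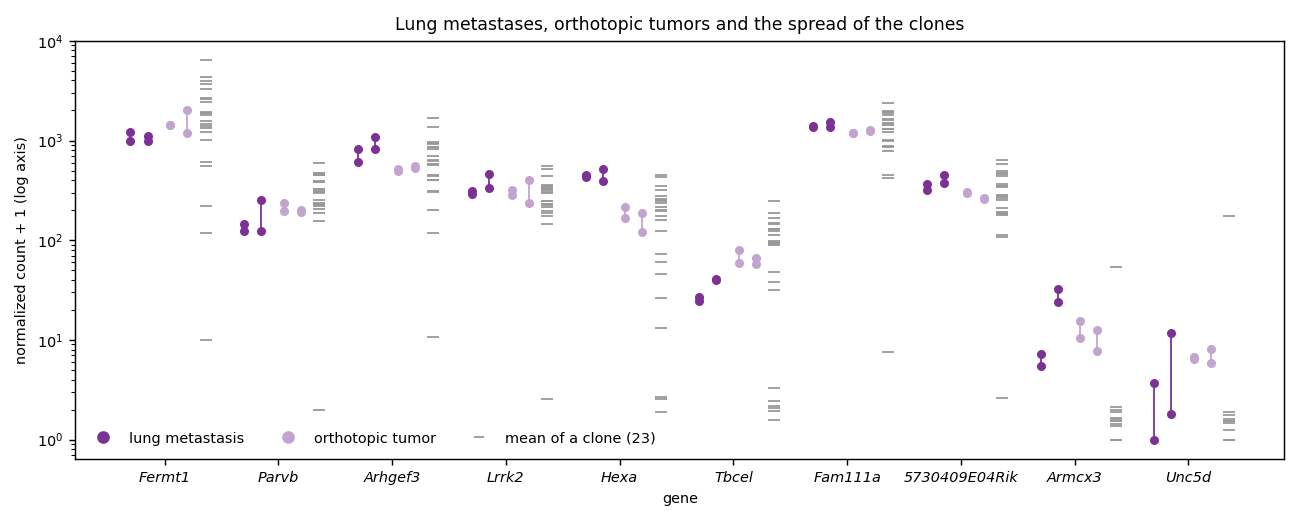
Normalized count + 1 (log axis) of the 10 genes in libraries A and B of each lung metastasis and each tumor, beside the means of the 23 clones (grey dashes). Hexa is higher in both lung metastases than in both tumors. Armcx3 and Unc5d lie below the 1 clone that has them on. The means of Unc5d are under 10 in all specimens, and those of Armcx3 in Lung_1 and Tumor_2.

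Sums of markers of other cells differed between the specimens as well. The 6 fibroblast markers summed to 1658 normalized counts in Lung_1 and 4452 in Lung_2, against 761.3 in Tumor_1 and 663.1 in Tumor_2, with 5 of 6 and 4 to 5 of 6 at 10 or more. Most of this was Pdgfra, with 1492 and 3394 in Lung_1 and Lung_2, against 568.6 and 511.7 in Tumor_1 and Tumor_2, a gene that the clones had at a median of 325.7 and up to 1756. The other 5 summed to 165.4 in Lung_1 and 1058 in Lung_2, against 192.7 in Tumor_1 and 151.4 in Tumor_2, so Lung_2 alone stood out. The 8 macrophage markers summed to 379.9 in Lung_1 and 870.3 in Lung_2, against 376.4 in Tumor_1 and 361.8 in Tumor_2, again with Lung_2 alone apart, and with 6 to 7 of 8 and 4 to 5 of 8 at 10 or more. The 5 leukocyte markers summed to 136.3 and 380.4 in Lung_1 and Lung_2, against 95.3 and 81.4 in Tumor_1 and Tumor_2. The 8 endothelial markers summed to 121.4 to 135.5 in lung metastases, against 62.3 to 78.2 in tumors. The 6 tumor epithelium markers had a lower sum, 15908 to 22522 in lung metastases, against 27071 to 30148 in tumors, with all 6 at 10 or more in every specimen. Epcam, Krt19, Cdh1 and Krt7 were lower in both lung metastases than in both tumors. Krt8 was higher, with 7542 and 5762 in Lung_1 and Lung_2, against 5026 and 4678 in Tumor_1 and Tumor_2. Krt18 overlapped, with 10947 and 7459.5 in Lung_1 and Lung_2, against 8021 and 7173 in Tumor_1 and Tumor_2. Neutrophil markers summed to 43.0 to 49.1 in lung metastases, against 18.03 to 20.23 in tumors, and muscle markers to 146.5 to 181, against 102.6 to 149.1. Most of the neutrophil sum was S100a8, with 43.6 and 35.9 in Lung_1 and Lung_2, against 15.2 and 14.7 in Tumor_1 and Tumor_2. Lymphocyte, lung epithelium and erythroid markers overlapped or stayed close, at 6.61 to 12.6, 28.8 to 35.1 and 78.4 to 79.3 in lung metastases, against 6.91 to 7.45, 20.3 to 42.3 and 86.9 to 112.7 in tumors. In all clones C1qa, Nkg7, Emcn, Hba-a1, Hbb-b1 and Hbb-bs were at 0, and Hba-a1, Hbb-b1 and Hbb-bs also in every specimen. Other markers were high in some clones, up to 238.8 for Cd53, 128.9 for Csf1r, 487.8 for Cd68 and 854.5 for S100a8. Clone sums reached 532 for macrophage, 265.3 for leukocyte and 905.9 for neutrophil markers, above Lung_1 and both tumors. These sums alone therefore do not tell cells of the mouse from tumor cells. Some single markers were near 0 in every clone and present in the specimens. C1qb had 57.8 and 166.5 in Lung_1 and Lung_2 and 18.5 and 17.6 in Tumor_1 and Tumor_2, against at most 0.557 in a clone. Laptm5 had 51.35 and 114.8 in Lung_1 and Lung_2 and 21.2 and 18.1 in Tumor_1 and Tumor_2, against at most 0.976. The part of cells of the mouse in the differences of Hexa, Arhgef3, Fermt1, Tbcel and Armcx3 was not tested. In bulk RNA fewer cells of a type and less RNA per cell cannot be told apart.

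Among the relatives of these genes the lung metastases differed from the tumors as follows, with a median difference over all genes tested of 0.02. Among other lysosomal genes tested beside Hexa, Glb1 was higher by 0.60 and Ctsa by 0.43 on the log2 scale, and Arsa, a sulfatase, was lower at -0.48 (limma adjusted p from 0.00610 to 0.0146). Gm2a differed by 0.16 and did not pass. Of 12 integrin and parvin partners, Rsu1, Tln2 and Pxn were higher by 0.48, 0.43 and 0.42, and the integrin gene Itgb1 was lower at -1.07 with 7455 and 10464 normalized counts in Lung_1 and Lung_2, against 21016 and 16901 in Tumor_1 and Tumor_2. The list median was 0.05.

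Of 13 genes of the list of RhoA exchange factors and GTPases, Arhgef10, Arhgef12 and Arhgef11 were higher by 0.88, 0.55 and 0.44 and Arhgef18 was lower at -0.34, around a median of -0.11. Of 7 netrin receptors and ligands, Flrt3, Ntn1 and Neo1 were higher by 1.08, 1.07 and 0.52 and Unc5b was lower at -0.58, around a median of 0.34. Of 9 genes of the list of LRRK kinases, Rab substrates and regulators, Rab8b was the 1 that passed, higher by 0.51. Of 4 genes tested from a list of relatives of Armcx3, Armcx4 was lower at -0.91. Of 11 replication fork genes, Rfc3 was higher by 0.35 and Fen1 lower at -0.64. Of 6 tubulin cofactor genes, 0 passed with limma and 0 had an unadjusted p under 0.05, and their median was -0.0049. Over the 23 clones each of the tested genes in these lists passed the limma F-test, as did 95.1% of all genes.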

How the data were processed

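The authors used mm10 as the mouse build, with Bowtie2, HTSeq and DESeq, per the submitters' processing notes. Versions and options, the strand setting among them, were not given in the sources used here. Per the labels' protocols, column-purified and DNase-treated total RNA was amplified with a NuGEN Ovation kit before sequencing. The authors deposited log2 values of 23481 genes in 54 libraries, from 5.03, where a gene has no read, to 20.2. The values follow a variance-stabilising curve, so low genes show smaller differences than log2 ratios of counts would. Normalized counts were obtained by undoing that curve, and 100.0% of the values then came out as whole reads within 0.01. Library totals ran from 8849257 to 31609870 reads, and the floors given for 0 reads cover counting error only. All columns had a sample (0 did not). The symbol was a date in 27 rows, which were left out of tests, and no library had a read in 1316 rows.

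The comparison of lung metastases with tumors used the mean log2 value of each specimen, in limma 3.58.1 in R 4.3.3, a variance trend, two-sided tests, Benjamini-Hochberg adjustment and a threshold of 0.05. Genes with at least 10 normalized counts in at least 2 libraries were tested, 13679 here and 13614 over the clones, where a moderated F-test was used for genes other than the 10. No count model was fitted to the log2 values. The scripts were checked on simulated data. Likeness was Pearson's r over 23 clone means, and the 3 most alike genes, the 1 most opposite and the 3 nearest tested genes per side were taken, of which the text names the leading ones. From each list the counts and up to 4 genes were named, those past the threshold with the largest difference. Some genes of the lists are not reported here. Genes of the lists given in single clones were chosen after their values were seen. The 10 genes, the lists and the markers were chosen with earlier results of these data known. Positions and sequences were taken from RefSeq GRCm38.p6, and 13571 of the tested genes matched by symbol. Libraries A and B of the same clone or specimen correlated at 0.981 to 0.998 across genes, and 0 pairs were identical. Numbers and letters in the labels did not pair samples: the lung and tumor deviations of the same specimen number correlated at -0.099, and differences between library letters correlated from -0.649 to 0.618 over 351 pairs.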

Additional observations from a re-analysis of the deposited data

How the results depend on the processing

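The count of genes higher in lung metastases than in tumors, 2281, and of those lower, 2025, moved to 1458 and 1186 with no filter on low values, to 180 and 160 with the B libraries alone, and the lower count to 1300 with the A libraries alone. Leaving out 1 specimen gave 637 to 2632 higher and 667 to 1991 lower genes, with the lowest counts without Tumor_1. With the specimen number as a replicate block the counts were 2393 and 2075, and in a fit of 8 libraries, which counts the 2 libraries of a specimen as separate replicates, with the library letter as a replicate block they were 2727 and 2288. In that fit 5730409E04Rik passed (0.35, limma adjusted p = 0.0301), with the block and the larger number of samples changed together. Over the clones the letter block gave 13035 genes past the F-test, against 12940 without it. The specimen block changed no other call of the 10 genes. Signs turned for Lrrk2 without Lung_2 (-0.02) and with the B libraries alone (-0.10), and for Armcx3 without Lung_2 (-0.22), and none of these 3 values passed. Without one specimen at a time Lrrk2 ran from -0.02 to 0.31 and Armcx3 from -0.22 to 0.47. Without a filter Arhgef3 (0.59) and Tbcel (-0.52) no longer passed (adjusted p = 0.0699 and 0.0776), nor did Tbcel without Lung_1 (-0.37). Of 107 alternatives for single genes, 83 kept direction and call.

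With a floor of 5 instead of 10 normalized counts, 0 clones were under it for Fam111a, Arhgef3 and Fermt1. With the B libraries alone it was 0 for Arhgef3 and Fermt1, and with levels scaled by library total it was 0 for Arhgef3. Genes with a gap of at least 2 numbered 97, against 449 for a gap of 1, 26 for a gap of 3 and 389 on the scale of log2(normalized count + 1). The causes were not tested. Few reads in the clones at the floor, at most 24 over both libraries of a clone, and 2 specimens per group limit what can be read from these levels.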
